A study of Caenorhabditis elegans with 48 samples.

Results

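The step examined here ran from 12-15 h to 16-19 h of larval growth in wild-type (WT) Caenorhabditis elegans. It was chosen as the window in which a second wave of microRNA (miRNA) accumulation falls, and it set 4 hourly small RNA libraries against the next 4, which is 8 of the 48 libraries of the series. The WT animals were of strain HW1993, which carries on chromosome IV the transgene xeSi312, a luciferase and GFP reporter under the eft-3 promoter with the unc-54 3′UTR and an unc-119(+) marker. The comparison strain HW2706, called lin-28(0), carries the same transgene and the allele lin-28(xe192). Both were started as synchronized first-stage larvae, received no treatment, and were grown in liquid with OP50 bacteria at 25°C, with whole animals sampled every hour from 0 to 23 h. There was 1 library per genotype and hour and no repeat culture is named, so the 4 libraries of a window are 4 hours of 1 time course: every p-value here measures the spread between neighbouring hours, not between cultures.

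Of 437 mature strands listed, 246 averaged at least 10 counts per library across all 48 and were tested. The miRNA counts per library ranged from 2315421 to 8363136 at 12-15 h and from 4729803 to 7626655 at 16-19 h, the shallowest being that of 15 h. The 10 most abundant strands held 69.3% to 72.1% of all counts. Levels are given in CPM, counts per 1000000 miRNA counts of that library, which are relative to all other miRNAs. In whole animals, more cells with a miRNA and more miRNA per cell cannot be told apart. The 16 h library resembled both windows equally, with a median correlation across strands of 0.986 with its own window and 0.986 with the earlier one, whereas each of the other 7 was closer to its own window.

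A miRNA precursor gives a duplex of 2 strands, of which the one loaded into Argonaute persists and the other is usually degraded. Guide is used here for whichever strand had the higher mean level across the 48 libraries, and passenger for its partner. Bases near the 5′ end, the seed, select target mRNAs, and miRNAs with a common seed form a family. In C. elegans the heterochronic pathway times larval cell fates: lin-4 represses lin-14 and lin-28, the let-7 sisters miR-48, miR-84 and miR-241 repress hbl-1, and let-7 represses lin-41 later. The RNA-binding protein LIN-28 keeps let-7 precursors from maturing.

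Across the step, 8 strands rose and 1 fell at an adjusted p of at most 0.01 (edgeR quasi-likelihood test with Benjamini-Hochberg adjustment over all strands). These are 3.25% and 0.407% of the strands tested. In all 9 the 2 windows did not overlap, which held for 22 strands in the upward direction (8.94%) and 23 in the downward (9.35%). The risers were both strands of miR-48, miR-241 and miR-237 together with miR-788-3p and miR-70-5p, and the strand that fell was miR-71-3p. Together the 8 risers made up 0.211% to 0.350% of all miRNA counts at 12-15 h and 0.679%, 1.87%, 2.87% and 3.28% at 16, 17, 18 and 19 h. Their share therefore grew through the later window. At an unadjusted p under 0.05 there were 73 strands, 41 higher and 32 lower. The median log2 fold change of all 246 strands was 0.01, on a scale that the TMM normalization itself centres.

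The call of these strands depended on having all 8 libraries. With the 12, 13, 14, 17 or 18 h library left out in turn 0 strands passed in edgeR, with 49 to 73 at an unadjusted p under 0.05. Only miR-237-3p passed without 19 h, 7 strands without 15 h and 14 without 16 h. In each of these fits all 9 strands kept their direction and their adjusted p was at most 0.0333. DESeq2 called 23 strands on the full set, among them all 9. With limma-voom 9 passed, of which 7 were shared, miR-237-5p (adjusted p = 0.013) and miR-788-3p (adjusted p = 0.014) being lost. Adding a linear trend of the hour shared by both windows left 0 calls in edgeR, with 8 at an unadjusted p under 0.05, so a jump at the border could not be separated from a steady rise across the 8 hours.

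**Figure D1:**
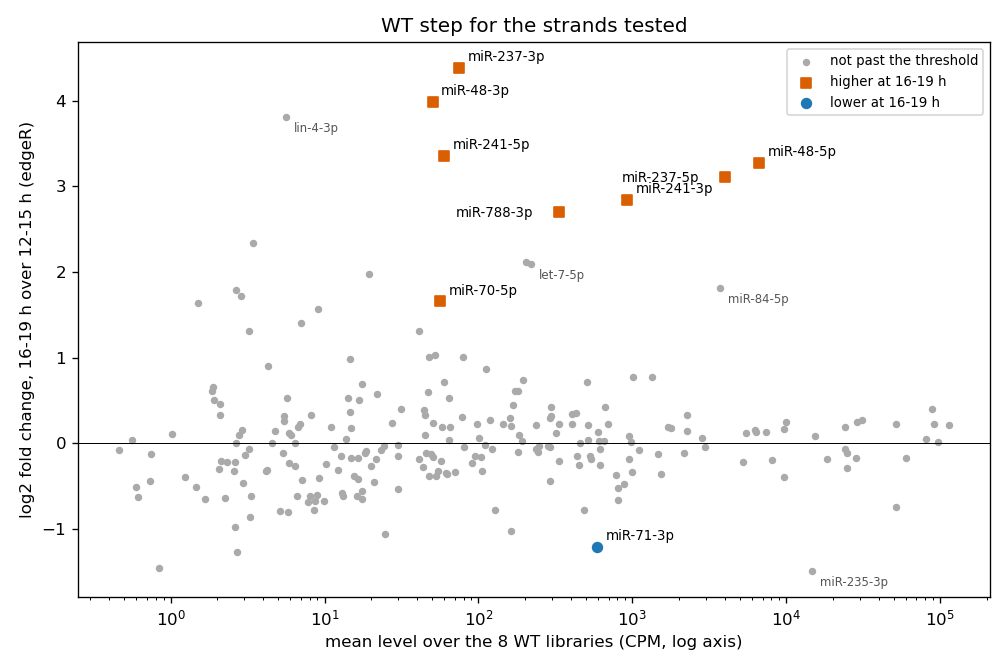
The log2 fold change from 12-15 h to 16-19 h in WT (y axis) against the mean level over the 8 libraries in CPM (x axis, log scale) for 245 strands. Orange squares are the 8 strands that rose and the blue circle is miR-71-3p, which fell, and grey points did not pass the threshold. The risers lie between 1.66 and 4.39 on the y axis. The strand let-7-3p, with 0 counts at 12-15 h, is not drawn.

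Among the let-7 family precursors, 12 strands were tested (7 of the family arm and 5 of the other arm) and 4 rose, beside 8 of all 246 (3.25%). All 4 came from mir-48 and mir-241, 2 genes that neighbour each other within 10 kb in the RefSeq annotation of WBcel235. The 7 family strands had a median log2 fold change of 1.82 and the 5 other-arm strands one of 2.84, beside 0.01 for all strands. The guide miR-48-5p, the most abundant riser, was at 1321, 1065, 1079 and 1782 CPM at 12, 13, 14 and 15 h and at 3429, 9511, 15965 and 19021 CPM at 16, 17, 18 and 19 h. Every later library was above every earlier one, and most of the gain came after 16 h. The log2 fold change was 3.28 ± 0.50 (SE, adjusted p = 0.0061, edgeR).

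Its passenger miR-48-3p read 1.72, 2.75, 6.90 and 16.4 CPM, then 60.2, 91.3, 105 and 120 CPM, a log2 fold change of 3.98 ± 0.63 (adjusted p = 0.0061, edgeR). Unlike the guide it was already climbing inside the earlier window. Its lowest value rests on 9 counts (exact 95% binomial interval 0.788 to 3.27 CPM, counting error only).

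The study models miR-241-5p as the guide, but miR-241-3p, the arm without the let-7 seed, was the more abundant one in these libraries. It was at 126, 112, 195 and 500 CPM and then at 1108, 1752, 1882 and 1739 CPM (log2 fold change 2.84 ± 0.50, adjusted p = 0.0070, edgeR). The let-7 family arm miR-241-5p was at 6.70, 7.53, 7.93 and 25.0 CPM and then at 42.7, 104, 128 and 158 CPM (3.36 ± 0.57, adjusted p = 0.0066, edgeR). In both arms the 15 h library stood above the 3 before it and below all 4 after it.

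The third sister and let-7 itself were higher in the later window on average but did not pass the threshold. The guide miR-84-5p was at 1878, 1192, 1184 and 2519 CPM and then at 2577, 4904, 6848 and 8361 CPM (log2 fold change 1.82 ± 0.41, adjusted p = 0.022, edgeR). Its values at 15 and 16 h were nearly level. The passenger miR-84-3p gave 2.12 ± 0.46 (adjusted p = 0.022, edgeR), from 32.4 to 153 CPM in the earlier window and from 288 to 364 CPM in the later.

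The mature let-7-5p was at 99.9, 87.0, 75.6 and 89.4 CPM and then at 85.5, 204, 467 and 645 CPM. The windows overlapped because 16 h was still at the earlier level, and the log2 fold change was 2.10 ± 0.54 (adjusted p = 0.039, edgeR). The passenger let-7-3p had 0 counts in each of the 4 earlier libraries and 4, 15, 36 and 8 counts at 16, 17, 18 and 19 h. Pooled over the window this is at least 20.9-fold higher than the limit of 3 counts over the 4 earlier libraries. These libraries were sequenced again to detect this strand, and its test did not pass either (adjusted p = 0.022, edgeR). It was tested because the filter averages every hour of both genotypes. Over the WT libraries of these windows alone, the mean count of let-7-3p was below that filter. All its test results therefore rest on few counts. Without the 16 h library let-7-5p, let-7-3p and miR-84-5p passed (adjusted p = 0.0024, 0.0049 and 0.0031, edgeR), and without the 15 h library miR-84-3p did (adjusted p = 0.0021, edgeR). On the full set, DESeq2 called both strands of let-7 and of miR-84, and limma-voom called let-7-3p (adjusted p = 0.0049) and miR-84-3p (adjusted p = 0.0057).

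The minor family members did not pass in either direction. Their log2 fold changes were 0.77 for miR-795-5p (adjusted p = 0.052), 0.53 for miR-795-3p, -0.14 for miR-794-5p and -0.52 for miR-793 (adjusted p = 0.091, edgeR).

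In the lin-4 family, which shares a seed between lin-4 and miR-237, 2 of 4 strands rose, both from mir-237, beside 8 of all 246. The guide miR-237-5p was flat at 932, 817, 736 and 1030 CPM and then read 1803, 6437, 9429 and 10908 CPM. This is a log2 fold change of 3.11 ± 0.49 (adjusted p = 0.0061, edgeR), with no overlap between windows. The passenger miR-237-3p had the largest fitted rise of the 9 called strands: 5.55, 4.42, 6.02 and 13.8 CPM, then 106, 277, 143 and 45.9 CPM (4.39 ± 0.59, adjusted p = 0.0061, edgeR). It peaked at 17 h and had dropped by 19 h, the hour at which its guide was highest.

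The founding member lin-4-5p was at 331, 328, 282 and 315 CPM and then 251, 285, 352 and 400 CPM (log2 fold change 0.12 ± 0.19, adjusted p = 0.72, edgeR). Its passenger lin-4-3p had 2 to 6 counts in each earlier library and 14, 103, 121 and 15 counts at 16, 17, 18 and 19 h, or 2.62, 19.9, 15.9 and 3.17 CPM. That is a pulse. The guide was lowest at 16 h, then climbed every hour and was highest of both windows at 19 h, although its window means barely differed. The log2 fold change of lin-4-3p, 3.81 ± 0.77, did not pass (adjusted p = 0.016, edgeR). It passed without 16 h (adjusted p = 0.0024), with no filter (adjusted p = 0.0080), with the spread shared by all 48 libraries (adjusted p = 0.0027) and in DESeq2 (adjusted p = 4.95e-06).

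**Figure D2:**
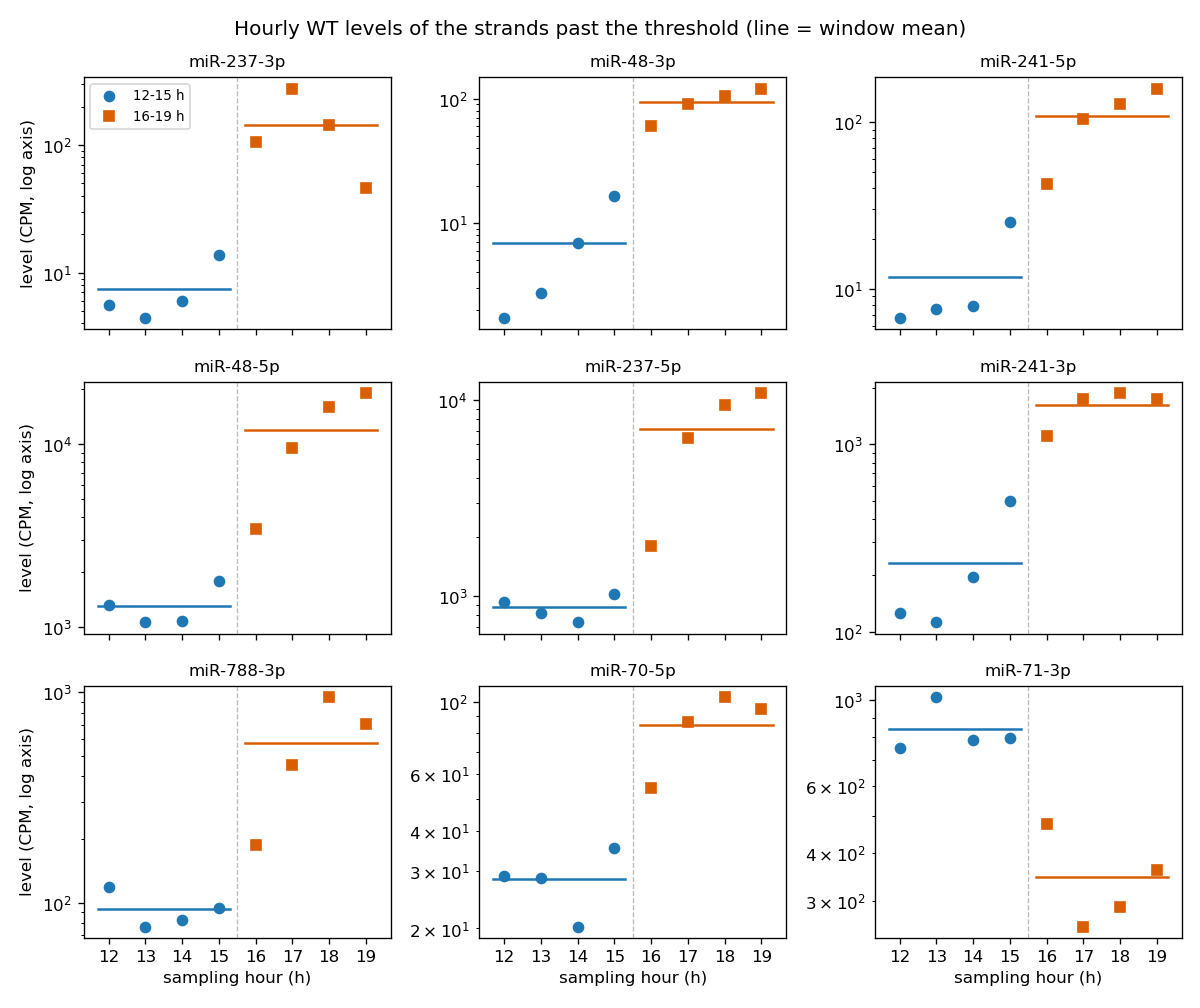
Level in CPM (y axis, log scale) at each sampling hour (x axis) in WT for the 9 strands past the threshold. Each point is 1 library, blue circles for 12-15 h and orange squares for 16-19 h, and lines are window means. No strand overlaps between windows, and miR-237-3p falls again after 17 h.

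Outside these families miR-788-3p and miR-70-5p rose. The strand miR-788-3p was at 119, 77.1, 82.8 and 94.2 CPM and then at 188, 450, 945 and 709 CPM (log2 fold change 2.70 ± 0.45, adjusted p = 0.0066, edgeR). It was thus highest at 18 h, and by 20-23 h its mean was 298 ± 60.9 CPM (SD, n = 4). Its partner miR-788-5p read 41.5 to 63.0 CPM and then 57.6 to 153 CPM (1.01 ± 0.32, adjusted p = 0.076, edgeR).

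The passenger miR-70-5p was at 29.1, 28.7, 20.3 and 35.4 CPM and then at 54.0, 86.5, 103 and 94.9 CPM (1.66 ± 0.27, adjusted p = 0.0061, edgeR). Its guide miR-70-3p, one of the abundant strands, ranged from 15668 to 37337 CPM and then from 16536 to 28325 CPM, with full overlap (-0.06 ± 0.31, adjusted p = 0.91, edgeR). Of the mir-70 products, the passenger passed and the guide did not.

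The single strand that fell, miR-71-3p, is the passenger of miR-71, a miRNA known for its part in adult lifespan and in survival of starved larvae. It was at 753, 1016, 788 and 799 CPM and then at 477, 258, 289 and 362 CPM (log2 fold change -1.20 ± 0.21, adjusted p = 0.0070, edgeR). The lowest later values were at 17 and 18 h. With the size factors of DESeq2 in the same edgeR test its adjusted p was 0.0103, just outside the threshold. The guide miR-71-5p climbed through the earlier window to 97930 CPM at 15 h and then fell to 15783 CPM at 19 h. The windows overlapped, with 16 h (71886 CPM) above 13 h (51935 CPM). Its log2 fold change was -0.75 ± 0.51 (adjusted p = 0.37, edgeR).

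The timing differed among the risers. Within 12-19 h, miR-48-3p, miR-241-3p and miR-70-5p first reached 50% of their own highest level at 16 h. For 4 others (miR-48-5p, miR-237-5p, miR-241-5p and miR-237-3p) this was at 17 h, and for miR-788-3p at 18 h. The hours of miR-48-3p, miR-70-5p and miR-48-5p rested on narrow margins. Their levels there were 60.2, 54.0 and 9511 CPM, against highest levels of 120, 103 and 19021 CPM. The exact binomial intervals of those levels were 53.8 to 67.1, 47.9 to 60.6 and 9428 to 9595 CPM. Each extended below 50% of the highest level, so counting error alone could place these strands 1 h later. The highest level fell at 19 h for 4 strands, at 18 h for 3 and at 17 h for 1. In 7 of the 8, 15 h was the highest hour of the earlier window, and in 7 of the 8, 16 h was the lowest of the later one. By 20-23 h miR-48-5p averaged 20992 ± 973 CPM and miR-237-5p 9463 ± 1093 CPM (SD, n = 4). The mean of miR-70-5p was 54.0 ± 21.5 CPM, down from 103 CPM at 18 h but above the 20.3 to 35.4 CPM of 12-15 h.

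**Figure D3:**
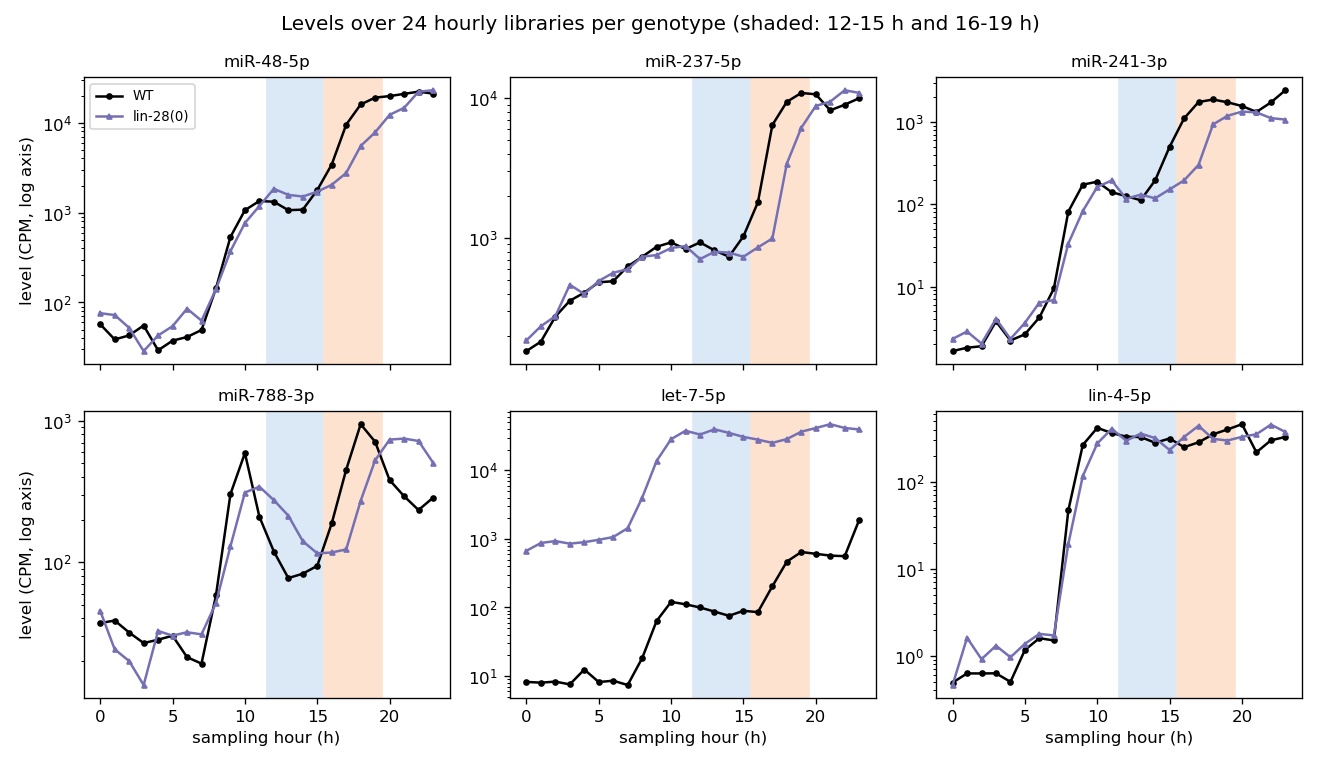
Level in CPM (y axis, log scale) over 24 hourly libraries (x axis, hours) of WT (black circles) and lin-28(0) (purple triangles) for 6 guide strands, named by level in these libraries. Shading marks 12-15 h (blue) and 16-19 h (orange). In WT, miR-48-5p is at 1079 CPM in the 14 h library and at 19021 CPM in that of 19 h, and lin-4-5p stays between 251 and 400 CPM across the shaded hours.

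No strand of the other seed families and clusters passed. Of all 246 strands tested, 8 rose, 1 fell and 73 were at an unadjusted p under 0.05. Across 11 lists with 48 tested strands (the miR-35, miR-44, miR-2, miR-51, miR-58 bantam, miR-72, miR-50, miR-75, miR-238 and miR-251 families and the miR-229 cluster with miR-64 to miR-66), 0 strands passed in edgeR, with 13 at an unadjusted p under 0.05, 0 in limma-voom and 2 in DESeq2 (miR-247-3p and miR-797-5p). Median log2 fold changes ran from -0.25 for the miR-72 family to 0.46 for the miR-75 family. The embryonic miR-35 family had a median of 0.36 over 7 strands, the miR-44 family 0.25 over 4, the miR-2 family 0.14 over 5, the bantam-related miR-58 family 0.13 over 5, and the miR-51 family 0.08 over 6. The largest single values were 2.34 for miR-797-5p (adjusted p = 0.032), 1.56 for miR-247-3p (adjusted p = 0.042), 1.40 for miR-797-3p (adjusted p = 0.074) and 0.71 for miR-75-3p (adjusted p = 0.079, edgeR). The miR-2 list held both arms of miR-797, and miR-797-5p was at 0% of its partner at 12 h.

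The medians were -0.05 over 8 strands for the miR-229 cluster, -0.17 over 3 for the miR-50 family, -0.20 over 3 for the miR-238 family and -0.07 over 2 for the miR-251 family. Smallest were miR-2209a-3p at -0.79 (adjusted p = 0.13) and miR-66-3p at -0.68 (adjusted p = 0.10, edgeR). Among 62 tested strands of miRNAs numbered 1000 or above, 0 passed in edgeR, with 19 at an unadjusted p under 0.05, beside 73 of all 246. Of the 62, 2 passed in DESeq2 (miR-1829b-5p and miR-4807) and 0 in limma-voom, and the median was -0.18.

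A list made here of 5 strands from miRNAs with a known link to EBAX-1, a substrate receptor in target-directed miRNA degradation, held both strands of miR-788, miR-247-3p, miR-71-5p and miR-235-3p and left out the miR-35 family. Of these, miR-788-3p rose and the other 4 did not pass. The study takes miR-788-5p as the guide and saw it stabilized in later ebax-1 mutant larvae, but not the passenger strand. The riser is thus the strand that the study did not find stabilized. In these libraries miR-788-3p was the more abundant strand. The miRNA miR-235-3p, which keeps blast cells quiescent in starved larvae, was at 22184, 24652, 22285 and 18593 CPM and then at 13060, 4652, 2208 and 9570 CPM, without overlap. Its test did not pass (log2 fold change -1.49 ± 0.46, adjusted p = 0.072, edgeR), and the trough was at 18 h.

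Markers of single tissues served as a check of composition in these whole animals, and 0 of 6 passed in edgeR, DESeq2 or limma-voom, with 0 at an unadjusted p under 0.05. Muscle miR-1-3p gave 0.23, glial and seam miR-228-5p -0.11, neuronal miR-124-3p -0.03, miR-791-3p -0.17 and lsy-6-3p -0.53, and intestinal miR-60-3p -0.78 (adjusted p = 0.22 for the last, edgeR). Muscle signal spanned 35766 to 60124 CPM and then 46855 to 66457 CPM. The summed neuronal strands lay between 67.7 and 91.5 CPM and then between 56.0 and 67.9 CPM. The part of tissue composition in the rises was not tested.

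By strand class, 4 of 84 tested passengers (4.76%) and 4 of 144 guides (2.78%) rose, and miR-71-3p was a passenger. The classes follow the levels in these libraries, which make passengers of miR-241-5p and miR-788-5p, modelled as guides in the study. Passenger over guide was compared directly for the 84 precursors with both strands tested, on log2((passenger CPM + 1)/(guide CPM + 1)). It passed for 3 precursors (3.57%, limma): higher for miR-70 (1.59 ± 0.28 on the log2 scale, adjusted p = 0.0068) and miR-39 (2.13 ± 0.38, adjusted p = 0.0068), and lower for miR-788 (-1.57 ± 0.30, adjusted p = 0.0092). The passenger miR-39-5p stood at 2.12%, 1.40%, 1.01% and 0.549% of its guide and then at 3.39%, 8.14%, 7.46% and 4.89%. The miR-788 passenger went from 44.0% to 71.8% of its guide to 13.0% to 30.6%.

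These ratio calls leaned on single libraries and on the pseudocount: leaving out 1 library gave 0 to 4 calls, with 0 left in limma without 14, 15, 17 or 18 h (10 to 17 at an unadjusted p under 0.05), 1 without 12 or 13 h, 2 without 16 h and 4 without 19 h. For miR-237 the passenger was 5.86% of its guide at 16 h and 0.421% at 19 h, and for lin-4 it was 6.98% at 17 h against 0.182% to 0.347% at 12-15 h. Neither ratio passed (adjusted p = 0.35 and 0.037, limma), and of the single libraries left out, lin-4 passed without 19 h alone.

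**Figure D4:**
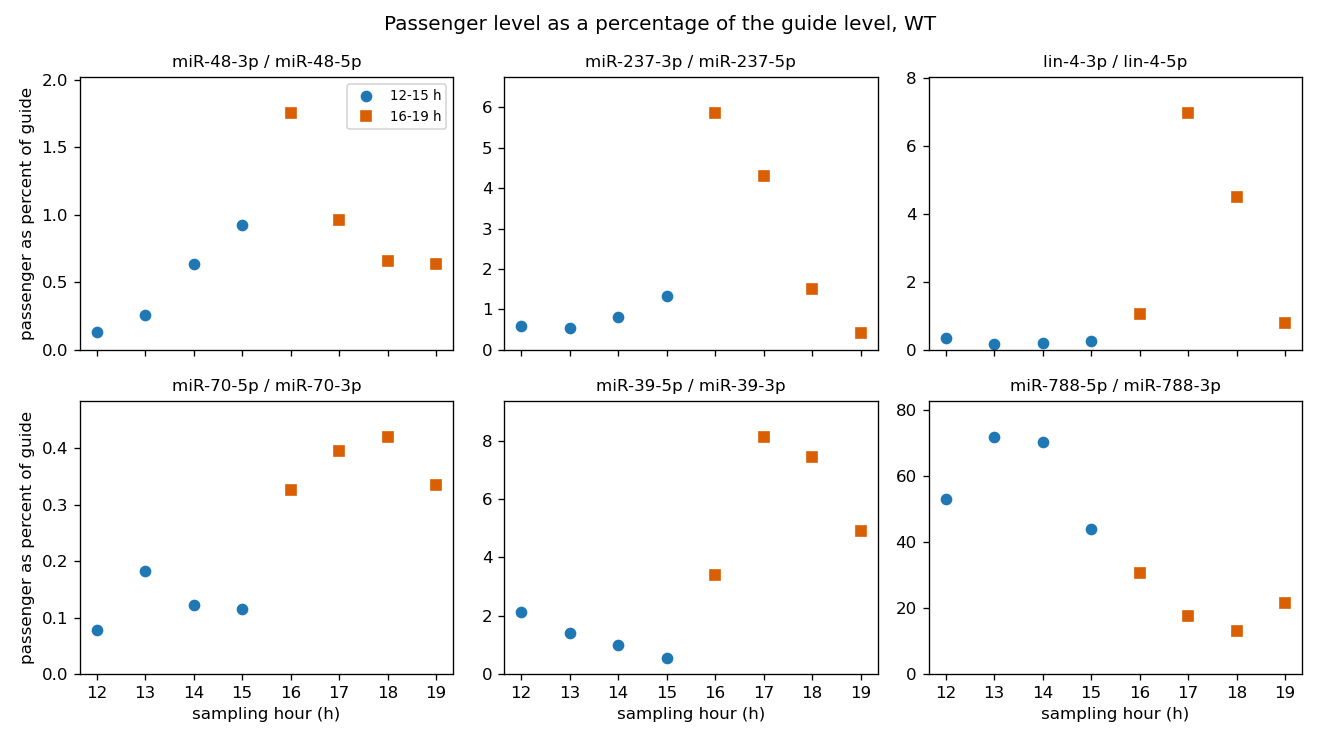
Passenger level as a percentage of guide level (y axis, linear from 0) at each sampling hour (x axis) in WT for 6 precursors. Each point is 1 library, blue circles for 12-15 h and orange squares for 16-19 h. The percentage is highest at 16 h for miR-48 (1.76%) and miR-237 (5.86%) and at 17 h for lin-4 and miR-39, and it is lower in all later libraries for miR-788.

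The same 4 h step was then measured in lin-28(0), in libraries that did not enter the main test above. They did count in the filter and in the naming of guides and passengers. The deletion is not visible in miRNA counts, but let-7-5p averaged 34779 CPM at 12-15 h there, against 88.0 CPM in WT. The difference between the lin-28(0) step and the WT step passed for 0 of 246 strands (0%) in edgeR, with 42 at an unadjusted p under 0.05, 0 in limma-voom and 1 in DESeq2 (miR-71-3p). Taken alone, the lin-28(0) step also had 0 calls in edgeR and 77 at an unadjusted p under 0.05.

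For the guide miR-48-5p the lin-28(0) libraries read 1840, 1575, 1510 and 1711 CPM and then 2040, 2761, 5509 and 7823 CPM. Means went from 1659 to 4533 CPM there and from 1312 to 11982 CPM in WT, a difference between the log2 steps of -1.69 ± 0.67 (adjusted p = 0.23, edgeR). The difference was -1.03 ± 0.82 for miR-237-5p (adjusted p = 0.53), -0.38 ± 0.77 for miR-241-3p (adjusted p = 0.85) and -2.07 ± 0.75 for miR-788-3p (adjusted p = 0.23, edgeR). None of these differences passed, which does not show that the steps were alike.

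For let-7-5p the lin-28(0) step was -0.19, from an already high level, against 2.10 in WT, a difference of -2.22 ± 0.60 (adjusted p = 0.17, edgeR). It passed only when the WT 16 h library was left out (adjusted p = 0.0022). For miR-71-3p the lin-28(0) step was 0.17, and the difference of 1.42 ± 0.31 had the smallest adjusted p of all strands, 0.089 (edgeR). Its lin-28(0) levels were 265, 235 and 271 CPM at 10, 11 and 12 h and 381, 557 and 489 CPM at 13, 14 and 15 h. They were then 443, 590, 451 and 391 CPM at 16, 17, 18 and 19 h and 265, 312, 235 and 231 CPM at 20, 21, 22 and 23 h. Similarly low values thus came at 10-12 h, of which 12 h is in the earlier window, and at 20-23 h. Low points came later in lin-28(0). For miR-71-5p they were at 10 h (8019 CPM) and 19 h (15783 CPM) in WT. In lin-28(0) they were at 12 h (22651 CPM) and 21 h (27678 CPM). Those of miR-235-3p were at 9 and 18 h in WT and at 10 and 20 h in lin-28(0). Setting the lin-28(0) windows 2 h earlier, against this lag, gave 18 calls in edgeR. Setting them 2 h later, with the lag, gave 0, with 20 at an unadjusted p under 0.05. The count thus turns on how the hours of the genotypes are aligned. The part of the lag in the differences was not tested. With the earlier windows the difference was -2.66 for miR-48-5p (adjusted p = 0.0054), -3.02 for miR-237-5p (adjusted p = 0.0011), -2.50 for miR-241-3p (adjusted p = 0.00996), -3.87 for miR-788-3p (adjusted p = 0.00012) and 2.08 for miR-71-3p (adjusted p = 0.00012, edgeR). With the later windows these were -0.79, 0.094, -0.059, -0.35 and 0.81, none of which passed.

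The earlier WT rise from 4-7 h to 8-11 h, in 8 other libraries of the same culture, gave 9 of all 246 strands higher and 0 lower at the same threshold. Of the 8 strands that rose in the second step, 5 had also risen in the first (62.5% of the second and 55.6% of the first): both strands of miR-48 and miR-241, and miR-788-3p. Both miR-237 strands and miR-70-5p passed in the second step only, and let-7-5p, both lin-4 strands and miR-39-5p in the first only.

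The difference between the steps passed for lin-4-5p alone, 0.407% of the strands. Its first step was 7.70 and its second 0.12, a difference of -7.61 ± 0.71 (adjusted p = 4.1e-06, edgeR). Its mean was 1.19 ± 0.49 CPM at 4-7 h and 274 ± 164 CPM at 8-11 h (SD, n = 4). For miR-237 the second step was the larger, by 3.91 ± 0.75 in miR-237-3p (adjusted p = 0.012) and 2.46 ± 0.52 in miR-237-5p (adjusted p = 0.021, edgeR), neither of which passed. Of these, miR-237-3p passed without 8, 15 or 19 h (3 of 16 libraries left out in turn) and miR-237-5p without 16 h. With the first step taken 1 h earlier, 3-6 h to 7-10 h, 0 strands passed in edgeR, with 40 at an unadjusted p under 0.05.

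**Figure D5:**
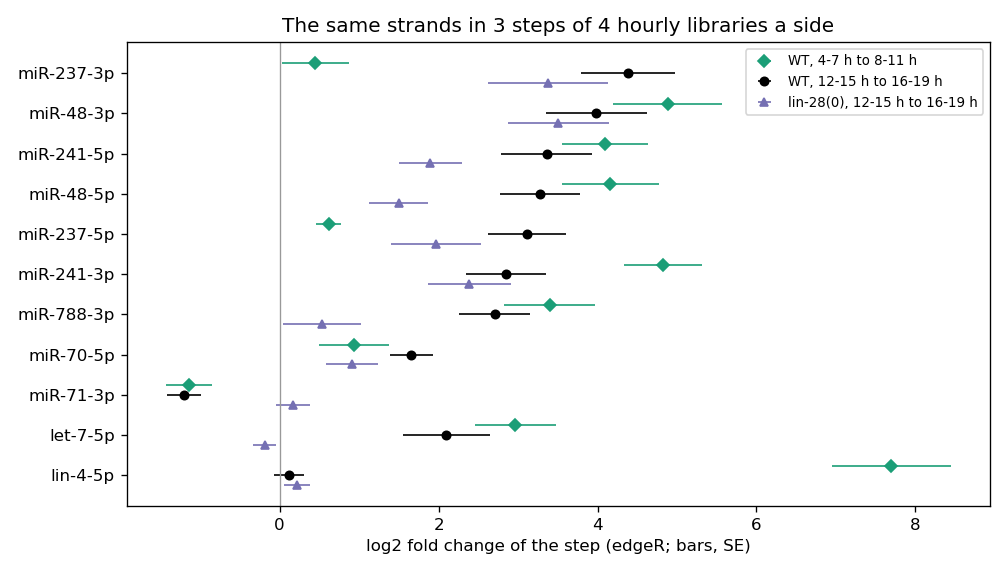
Log2 fold change with its SE (x axis) of the 9 called strands, let-7-5p and lin-4-5p (y axis) in 3 steps: WT 4-7 h to 8-11 h (green diamonds), WT 12-15 h to 16-19 h (black circles) and lin-28(0) 12-15 h to 16-19 h (purple triangles). For lin-4-5p the first WT step (7.70) lies far from the second (0.12), and for miR-237-5p the order is the opposite, 0.62 against 3.11.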

How the data were processed

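As the methods describe, adapters were trimmed by the authors and reads mapped to the genome build ce10 with QuasR and Bowtie, whose version the sources used here do not give, allowing up to 100 hits. They counted same-strand reads starting within 3 bases of each miRBase version 22 mature 5′ end. The deposited counts were used as they stand. A second table the authors deposited holds log2 of scaled counts plus 8; it was recomputed from the counts to within 0.0005 and used for nothing else. Libraries were sequenced in 3 reactions with different preparation kits, and the sources used here do not say which of them entered the counts. Near-identical miRNAs may share reads because of the multiple hits.

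Counts were fitted with edgeR 4.0.16 (R 4.3.3, TMM, quasi-likelihood), with DESeq2 1.42.0 and limma 3.58.1 as alternatives and limma for passenger-to-guide ratios (pseudocount 1 CPM), all at an adjusted p of at most 0.01. The tests were tried on simulated data. Strands averaging at least 10 counts over the 48 libraries were tested. Named strands were those called at 10 CPM or more on average (up to 12 each way), their partner strands, the let-7 and lin-4 families, and up to 4 members of each other list. Alternatives were other normalizations, filters, tests, windows, trends and pseudocounts, and leaving out each library. The members and lists were chosen with earlier results of these data known. A count of 0 allows up to 3 counts, at most 1.30 CPM per library.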

Additional observations from a re-analysis of the deposited data

Results flagged for a closer look

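In 43 windows of 4 hourly libraries checked for 22 strands, 2 libraries stood apart from the other 3 by a gap beyond Dixon's 95% critical value, where chance gives about 1 in 20 windows. Both are the 15 h library of the earlier window, the one nearest to the step: miR-241-5p was at 25.0 CPM there and miR-237-3p at 13.8 CPM. Without that library the log2 fold changes were 3.98 for miR-241-5p (adjusted p = 0.0017, edgeR) and 4.81 for miR-237-3p (adjusted p = 0.0018, edgeR). The 15 h library is also the shallowest of the 8, with 2315421 counts, and the part of depth was not tested. The steps of lin-4-5p differed between the second and the first wave in WT by -7.61 on the log2 scale, by a test of the difference itself (adjusted p = 4.1e-06, edgeR), and the difference passed with each of the 16 libraries left out.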

How the results depend on the processing

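The directions of the 9 called strands held in 20 of 20 alternatives, but their calls did not. The alternative at an adjusted p of at most 0.05 reused the main fit, so its directions could not differ. The count of 9 became 23 with DESeq2, 25 at an adjusted p of at most 0.05, 24 with the spread estimated from all 48 libraries, 1 with 3 h a side, 0 with a linear hour term and 15 without 15 and 16 h (chosen after seeing the data). With 1 library left out it ran from 0 to 14. The lin-28(0) difference gave 1 call with DESeq2, and 0 to 1 with 1 library left out. It gave 18 with lin-28(0) windows 2 h earlier and 0 with them 2 h later, the direction in which lin-28(0) lagged. The difference between WT steps gave 5 calls with DESeq2, 2 with limma-voom, 3 with no filter and 0 with the first step 1 h earlier, and 1 to 2 with 1 library left out. The ratio gave 0 calls at a pseudocount of 0.1 CPM and 1 at 10 CPM, and 0 to 4 with 1 library left out. No paired analysis was possible because the labels give no replicate numbers, except that WT and lin-28(0) share sampling hours, and a fit with the hour as a block left 0 calls of a genotype difference. The causes were not tested.

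Values that changed sign all came from a test that the strand or ratio had not passed. With the linear hour term they were -0.15 for let-7-5p, -0.46 for lin-4-5p, -0.76 for miR-795-3p and -0.17 for miR-795-5p. For lin-4-5p they were -0.00277 at a mean count of at least 100 and -0.030 with 3 h a side, and its range with 1 library left out was -0.048 to 0.23. For miR-70-3p they were 0.045 with limma-voom, 0.011 with 3 h a side and 0.22 without 15 and 16 h, with a range of -0.25 to 0.18 with 1 library left out (0.18, 0.080 and 0.073 without 12, 15 and 16 h). With lin-28(0) windows 2 h later miR-237-5p gave 0.094. At a pseudocount of 10 CPM the ratio steps were -0.29 for miR-48 and -0.57 for miR-241, and the latter was -0.070 to 0.33 with 1 library left out.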
